A study of Saccharomyces cerevisiae with 16 samples.

Results

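The genes described here encode the 6 subunits of the MCM2-7 replicative helicase (*MCM2* to *MCM7*) and its loader *CDC6* in *Saccharomyces cerevisiae*. They were chosen by systematic name (YBL023C, YEL032W, YPR019W, YLR274W, YGL201C, YBR202W and YJL194W), which gave 7 of the 7126 genes in the deposited tables. RNA-seq was carried out on WT cells (the haploid laboratory strain BY4741) and *lsm1∆* cells, a single strain of the same background in which the gene for the mRNA decay and P-body factor Lsm1 is deleted. Cells grew in YPD and were sampled before (0 h) and 1, 2 and 4 h after addition of 200 mM hydroxyurea (HU), which inhibits ribonucleotide reductase and slows replication forks. Each of the 8 groups held 2 libraries, and the comparisons ask how transcript levels of helicase and loader differ with HU and with loss of *LSM1*. No untreated culture was sampled at 1, 2 or 4 h, so HU and time in culture cannot be told apart.

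Helicase loading, or licensing, happens in late M and G1 phase, when the origin recognition complex (ORC), Cdc6 and Cdt1 place MCM2-7 rings around origin DNA. In S phase Cdc45 and the GINS complex join each ring to form the active CMG helicase, and cyclin-dependent kinase (CDK) then blocks new loading. In budding yeast the MCM subunits are abundant proteins, whereas Cdc6 is made anew in each cycle and is destroyed after CDK phosphorylation marks it for the ubiquitin ligase SCF-Cdc4. Transcription of these genes peaks between M and G1 phase, in several of them through the early cell cycle box (ECB). This site is bound by the MADS-box factor Mcm1, which is distinct from the MCM subunits despite its name. The homeodomain proteins Yox1 and Yhp1 repress at ECBs outside that window.

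The paper calls the replicates technical in its methods, so p-values may measure technical spread only. The values are FPKM (fragments per kilobase of gene, scaled to library size) as estimated by Cufflinks, and the kit used does not keep the strand. The widths of the Cufflinks intervals correspond to 8566989 to 11190860 reads per library, and for the 7 members to between 269 and 1438 reads. *LSM1* was listed at 111 to 181 FPKM in WT and at 0 to 0.761 FPKM in *lsm1∆*, as the labels say. *URA3*, *LEU2* and *MET17*, which BY4741 lacks, were listed at 0 in all libraries of both strains. *HIS3*, a further marker of the strain, was listed at 46.6 to 79.8 FPKM in WT and 69.8 to 86.1 FPKM in *lsm1∆*. *HUG1*, a standard reporter of the replication checkpoint, rose from a mean of 51.7 to 16970 FPKM in WT and from 88.4 to 10506 FPKM in *lsm1∆* after 4 h. The *lsm1∆*/WT ratio of the median gene was not 0 on the log2 scale, but 0.13, 0.04, 0.17 and 0.37 at 0, 1, 2 and 4 h. Each ratio was therefore also computed after centring every library on its median gene, and both values are given where the call depends on it.

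Each member is a gene with a single exon, listed at the same position in the deposited tables and in the RefSeq annotation of the R64 (sacCer3) genome. *MCM2* lies on chromosome II (174920-177526, minus strand), *MCM3* on V (86937-89852, plus), *MCM4* on XVI (596750-599551, plus) and *MCM5* on XII (691555-693882, plus). *MCM6* lies on VII (117854-120907, minus), *MCM7* on II (625772-628309, plus) and *CDC6* on X (69338-70879, plus). The letters of an ECB (TTNCC, then 6 bases of which the fourth is T, then GGAAA) were searched on both strands of the 500 bases before each start codon. They were present in 59 of 6019 promoters (0.98%) and in 5 of the 7 members, namely *MCM3*, *MCM5*, *MCM6*, *MCM7* and *CDC6*. The ECB was first described in promoters of this family, so its presence here is background and not a finding. The matches are printed because they are what these 5 promoters share, from RefSeq R64, along the strand of the gene, with the 16 matching bases in capitals.
*MCM3*, chrV:86745-86774 (the pattern reads on the other strand): aattactTTTCCTAAATGGGTAAaaactcg
*MCM5*, chrXII:691394-691423: tggcgtgTTTCCCTTTTAGGAAAagtgatt
*MCM6*, chrVII:121063-121092: tattaaaTTTCCTTTTTAGGAAAagcgcct
*MCM7*, chrII:625552-625581: aaggaaaTTTCCTTATAAGGAAAataaatg
*CDC6*, upstream copy, chrX:69138-69167: gtcggagTTTCCAGATCAGGAAAttaccca
*CDC6*, downstream copy, chrX:69154-69183: caggaaaTTACCCACTTAGGAAAttgagtt

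All matches began between 213 and 154 bases before the start codon. *CDC6* held a pair of copies whose capitals abut, and the matches in *MCM7* and in the upstream copy of *CDC6* read as ECB letters on both strands. No match was found in the windows of *MCM2* and *MCM4*, which says only that these letters are absent there. The shorter Mcm1 core within the ECB (CC and GG with any 6 bases between them) was in all 7 windows but also in 49.1% of all promoters. TAATTG, a homeodomain site of the kind Yox1 binds, was in the windows of *MCM3* and *MCM5* and in 34.6% of promoters. The MCB letters ACGCGT, read by the G1/S factor MBF, were in the windows of *MCM5* and *CDC6* and in 5.4% of promoters. The SCB letters CACGAAA, read by the G1/S factor SBF, were in the window of *MCM7* and in 7.13% of promoters.

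The helicase subunits were expressed at moderate and similar levels. Over the 16 libraries the lowest value of any subunit was 18.0 FPKM (*MCM2*) and the highest 49.2 FPKM (*MCM7*), and all members lay between the percentiles 31.0 and 61.9 of their library. Within a library the highest subunit exceeded the lowest by 1.28 to 2.30 fold. *MCM2* was the lowest subunit in all 8 WT libraries, whereas in *lsm1∆* the lowest was *MCM5* in 4 libraries, *MCM2* in 3 and *MCM3* in 1. By median over all libraries the order was *MCM7* (36.0 FPKM), *MCM3* (35.4), *MCM4* (32.8), *CDC6* (31.7), *MCM5* (29.3), *MCM6* (28.4) and *MCM2* (25.6). The ranges of neighbours in this order overlapped. *CDC6* varied most, with a highest value 2.23 times its lowest, and *MCM4* least, at 1.47 times.

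A pair of members overlap other genes, and with reads of no known strand their levels are less certain. *MCM3* contains the dubious open reading frame YEL032C-A (V: 87040-87201), listed at 229 to 446 FPKM, and *CDC6* shares 605 bases with YJL195C, listed at 1.23 to 4.35 FPKM. In the members without an overlap, FPKM and interval width corresponded to nearly the same number of reads per kilobase (0.974 to 1.03 of their median). The same quantity was 0.597 to 0.747 for *MCM3* and 0.721 to 0.826 for *CDC6*. Whether this comes from a higher estimated level or from a wider interval cannot be told apart, so the rank of these genes among the members is uncertain.

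**Figure D1:**
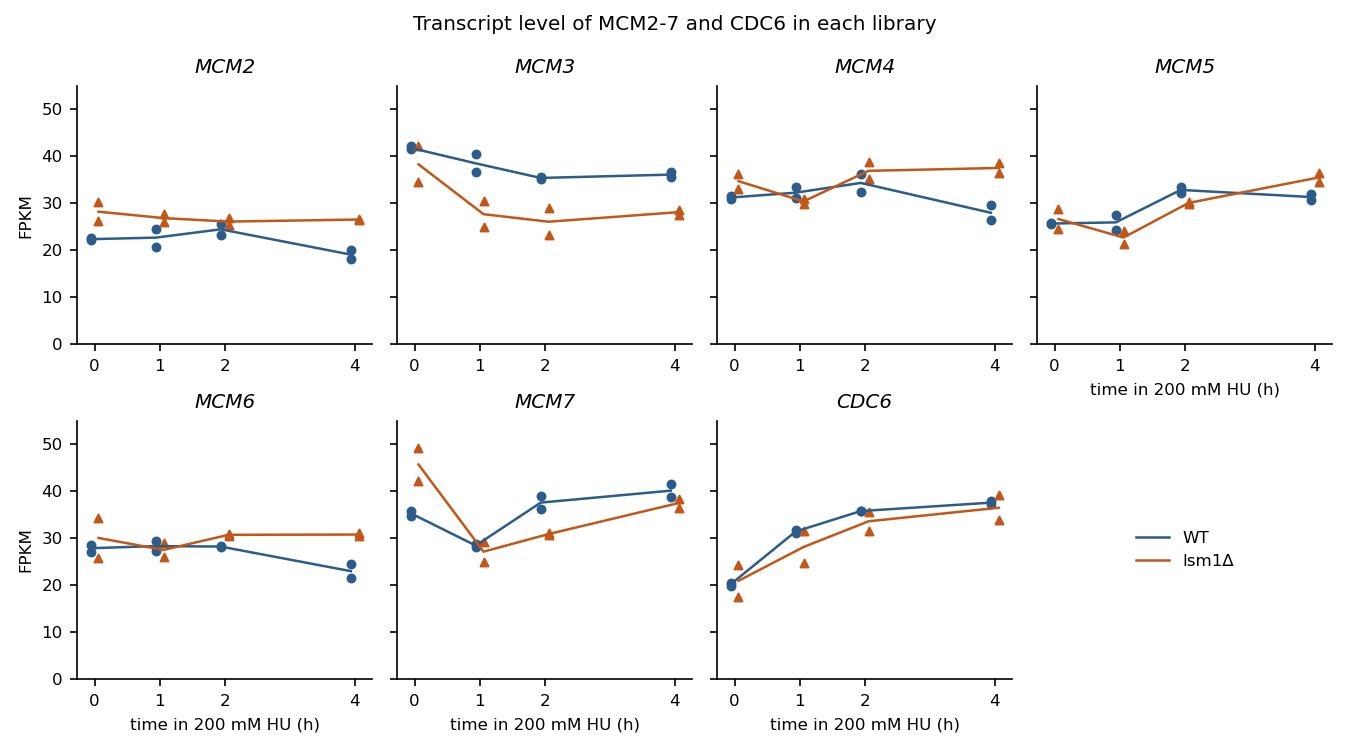
Level of each member in FPKM (y axis) against hours in 200 mM HU (x axis), with points for the 2 libraries of each group and lines through group means (WT blue circles, *lsm1∆* orange triangles). *CDC6* rose with HU in both strains, *MCM3* lay lower in *lsm1∆* at 1, 2 and 4 h, and *MCM7* dropped at 1 h, from the highest level of any member in *lsm1∆*.

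In WT cells the loader transcript rose during HU, while the subunits moved little and not together. *CDC6* was at 19.9 and 20.5 FPKM before HU, 31.1 and 31.8 at 1 h, 35.8 and 35.7 at 2 h and 37.9 and 37.3 at 4 h. Every HU library lay above both untreated libraries, although neither 2 h against 1 h nor 4 h against 2 h gave a called difference. The log2 ratios to 0 h were 0.61, 0.79 and 0.86 (SE 0.15; limma, adjusted p = 0.0075, 0.0018 and 0.00083), and all 3 calls held when any library was left out. After centring the ratio at 1 h was 0.37 (adjusted p = 0.091), and those at 2 and 4 h were 0.61 and 0.89 and remained called. In these bulk cultures, more transcript per cell and more cells in the phase that makes it cannot be told apart.

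*MCM5*, whose product forms with Mcm2 the gate through which DNA enters the ring, was the only subunit called higher at 2 and 4 h in WT. It was at 25.8 and 25.6 FPKM at 0 h, 24.3 and 27.6 at 1 h, 33.5 and 32.2 at 2 h and 30.8 and 31.9 at 4 h. Its log2 ratio to 0 h was 0.34 at 2 h (SE 0.090; adjusted p = 0.012) and 0.28 at 4 h (adjusted p = 0.028). These calls were less firm than those of *CDC6*. The ratio at 2 h was 0.16 after centring (adjusted p = 0.23). Leaving out WT 0 h replicate 2 or WT 2 h replicate 1 raised the adjusted p at 2 h to up to 0.067, with ratios of 0.31 to 0.37, and at 4 h leaving out any of the 4 libraries raised it to up to 0.12.

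*MCM7* fell and recovered. It was at 34.8 and 35.8 FPKM at 0 h, 28.1 and 28.8 at 1 h, 38.9 and 36.2 at 2 h and 38.8 and 41.5 at 4 h in WT, and the 1 h libraries lay below all others. The log2 ratio at 1 h to 0 h was -0.30 (SE 0.089; adjusted p = 0.020) and that of 2 h to 1 h was 0.39 (adjusted p = 0.047). Both were called after centring too, at -0.55 and 0.45. Leaving out either WT 0 h library or WT 1 h replicate 1 raised the adjusted p of the fall to up to 0.091, and leaving out any of the 4 libraries raised that of the recovery to up to 0.19.

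The remaining subunits in WT showed no called change from 0 h on the deposited scale. *MCM3*, the subunit that contacts Cdc6 during loading, was at 41.5 and 42.1 FPKM at 0 h and 35.7 and 36.6 at 4 h. *MCM2* went from 22.5 and 22.2 to 20.1 and 18.0, *MCM4* from 30.9 and 31.5 to 29.6 and 26.4, and *MCM6* from 28.6 and 27.2 to 24.4 and 21.6 FPKM. *MCM2*, *MCM4* and *MCM6* had their lowest WT libraries at 4 h. Between 2 and 4 h *MCM2* (log2 ratio -0.34, adjusted p = 0.028) and *MCM4* (-0.29, adjusted p = 0.034) were called lower, but not after centring (-0.13 and -0.08), when the median gene had itself moved by -0.19. Without WT 2 h replicate 1 or WT 4 h replicate 2 the calls were lost (adjusted p up to 0.18 and 0.22). *MCM3* was called lower at 2 h only after centring (-0.42, adjusted p = 0.030). In all, 2 of the 7 members were called at each of 1, 2 and 4 h against 0 h, where 44.4%, 42.9% and 47.9% of all genes tested were called. Between consecutive times the counts were 1 of 7 from 1 to 2 h (3.2% of genes) and 2 of 7 from 2 to 4 h (25.5%).

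In *lsm1∆* cells *CDC6* rose as well, from 17.5 and 24.4 FPKM at 0 h to 24.7 and 31.5 at 1 h, 31.5 and 35.7 at 2 h and 39.1 and 33.9 at 4 h. The untreated libraries differed from each other by 32.7% of their mean, the widest gap of any member between replicates, and all HU libraries lay above both. The log2 ratios were 0.42 at 1 h (adjusted p = 0.053), 0.67 at 2 h (adjusted p = 0.0038) and 0.79 at 4 h (adjusted p = 0.0011). The call at 2 h was lost after centring (0.41, adjusted p = 0.057), and that at 4 h was kept (0.48, adjusted p = 0.024). The response of *CDC6* did not differ detectably between strains, with interactions of -0.20, -0.12 and -0.08 (SE 0.21; adjusted p = 0.67, 0.82 and 0.81). Relative to the mean of the subunits, *CDC6* was at 0.658 fold in untreated WT and 1.27 fold at 4 h (means of 2 libraries), and at 0.613 and 1.12 fold in *lsm1∆*. Every member, and not only *CDC6*, was higher in replicate 2 than in replicate 1 of untreated *lsm1∆*. The summed MCM2-7 level was 186.4 FPKM in replicate 1 and 221.1 in replicate 2, while the library medians were 31.8 and 31.5 FPKM. All ratios to 0 h in *lsm1∆* and all interactions use these 2 libraries.

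At 2 and 4 h the response of *MCM7* in *lsm1∆* lay below that in WT. The gene was at 42.2 and 49.2 FPKM at 0 h, 25.0 and 29.3 at 1 h, 30.7 and 31.1 at 2 h and 38.5 and 36.5 at 4 h, and every HU library lay below both untreated ones. The log2 ratios to 0 h were -0.73, -0.55 and -0.28 (SE 0.089; adjusted p = 0.00022, 0.00065 and 0.023), all called after centring as well. The first pair of calls held whichever library was left out, whereas that at 4 h was lost without *lsm1∆* 0 h replicate 2 or *lsm1∆* 4 h replicate 2 (adjusted p up to 0.18). The difference between the strains' responses, the interaction, was -0.43 at 1 h (adjusted p = 0.15), -0.63 at 2 h (adjusted p = 0.047) and -0.45 at 4 h (adjusted p = 0.023).

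*MCM7* was the only member with a called interaction. Called interactions made up 1 of 7 members at 2 h against 1.35% of all genes, and 1 of 7 at 4 h against 30.5%. At 1 h none of the 7 was called against 0.502% of genes, with 1 member at an unadjusted p under 0.05 and none by limma voom on reads implied by the intervals. At 2 h the call was lost without any of 7 of the 8 libraries (all but *lsm1∆* 0 h replicate 1), with ratios of -0.74 to -0.52 and adjusted p up to 0.14. At 4 h it was lost without WT 0 h replicate 1, *lsm1∆* 0 h replicate 2, WT 4 h replicate 2 or *lsm1∆* 4 h replicate 2, with ratios of -0.56 to -0.35 and adjusted p up to 0.079.

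*MCM3* was also lower than before HU in *lsm1∆*. It was at 34.5 and 42.2 FPKM at 0 h, 24.9 and 30.5 at 1 h, 23.2 and 29.0 at 2 h and 28.7 and 27.6 at 4 h, with every HU library below both untreated ones. The log2 ratios were -0.45, -0.54 and -0.43 (SE 0.13; adjusted p = 0.019, 0.0054 and 0.015), and each was called after centring. The call at 1 h was lost without *lsm1∆* 0 h replicate 2 or 1 h replicate 1 (adjusted p up to 0.15), that at 2 h without 2 h replicate 1 (0.052) and that at 4 h without 0 h replicate 2 or 4 h replicate 2 (up to 0.12). The interactions of *MCM3* were -0.34, -0.30 and -0.22 (adjusted p = 0.39, 0.42 and 0.39), so a difference from its response in WT was not shown.

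*MCM5* in *lsm1∆* was at 24.5 and 28.8 FPKM at 0 h, 21.3 and 24.2 at 1 h, 29.8 and 30.4 at 2 h and 34.6 and 36.4 at 4 h. It was called higher at 4 h than at 0 h (log2 ratio 0.40, SE 0.090, adjusted p = 0.0031) and at 2 h than at 1 h (0.39, adjusted p = 0.031). After centring neither was called (0.09 and 0.28), and the rise from 1 to 2 h was lost without any of its 4 libraries (adjusted p up to 0.15). *MCM2*, *MCM4* and *MCM6* had log2 ratios between -0.18 and 0.11 to 0 h, none called. Against 0 h, centring added lower calls of *MCM5* at 1 h (-0.38, adjusted p = 0.015), *MCM2* at 2 and 4 h (-0.37 and -0.39) and *MCM4* at 1 and 4 h (-0.34 and -0.20). The counts called in *lsm1∆* were 2 of 7 at 1 h, 3 of 7 at 2 h and 4 of 7 at 4 h, against 34.4%, 48.7% and 58.3% of genes. From 1 to 2 h 1 of 7 was called (7.55% of genes). From 2 to 4 h none was called by limma (9.14% of genes), with 2 members at an unadjusted p under 0.05 and 1 called by voom.

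The strains were then compared at each time. Before HU, *MCM2* and *MCM7* were higher in *lsm1∆*. *MCM2* was at 26.2 and 30.2 FPKM against 22.5 and 22.2 in WT, and *MCM7* at 42.2 and 49.2 against 34.8 and 35.8, with no overlap. The log2 ratios were 0.32 (SE 0.097; adjusted p = 0.033) and 0.36 (SE 0.089; adjusted p = 0.014). Neither call remained after centring (0.23 and 0.27, adjusted p = 0.11 and 0.062) or without *lsm1∆* 0 h replicate 2 or either WT 0 h library (adjusted p up to 0.20 and 0.10). These were 2 of 7 members, where 28.5% of all genes were called.

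During HU, *MCM3*, *MCM7* and *CDC6* had lower group means in *lsm1∆* at 1, 2 and 4 h, but only *MCM3* was called at each time. The log2 ratios at these times were -0.07, -0.27 and -0.10 for *MCM7* and -0.16, -0.09 and -0.04 for *CDC6*. At 1 h *MCM3* was at 24.9 and 30.5 FPKM against 36.6 and 40.5 in WT, at 2 h at 23.2 and 29.0 against 35.6 and 35.3, and at 4 h at 28.7 and 27.6 against 35.7 and 36.6. The groups did not overlap at any of these times, while at 0 h they did (34.5 and 42.2 against 41.5 and 42.1). The log2 ratios of *MCM3* were -0.47, -0.43 and -0.35 (SE 0.13; adjusted p = 0.016, 0.020 and 0.037), and -0.47, -0.61 and -0.77 after centring. Averaged over the 3 times the ratio was -0.42 (SE 0.073; adjusted p = 0.00059), and this call held whichever of the 12 libraries was left out (highest adjusted p = 0.0024).

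*MCM3* was the only member called lower at 1, 2 and 4 h, on either scale, as were 3.33% of all genes on the deposited scale and 8.74% after centring. The single time points rested on few libraries. The call at 1 h was lost without WT replicate 2 or *lsm1∆* replicate 1, at 2 h without either WT library or *lsm1∆* replicate 1, and at 4 h without any of the 4 (adjusted p up to 0.12, 0.16 and 0.14). In a test on the reads implied by the intervals, chosen after seeing the data, the ratios were -0.40, -0.39 and -0.41 (limma voom, adjusted p = 0.0064, 0.0083 and 0.0038). The nested YEL032C-A had log2 ratios of -0.54, -0.57 and -0.43 at these times (adjusted p = 0.067, 0.053 and 0.11). It held 4.80% to 8.29% of the reads implied for both genes in *lsm1∆* and 6.55% to 8.01% in WT. However, its implied reads per FPKM and kilobase were only 0.081 to 0.083 of the median of the members without an overlap. These percentages may therefore understate its share, and the voom ratios rest on the same implied reads. The part of YEL032C-A in the result was not tested.

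**Figure D2:**
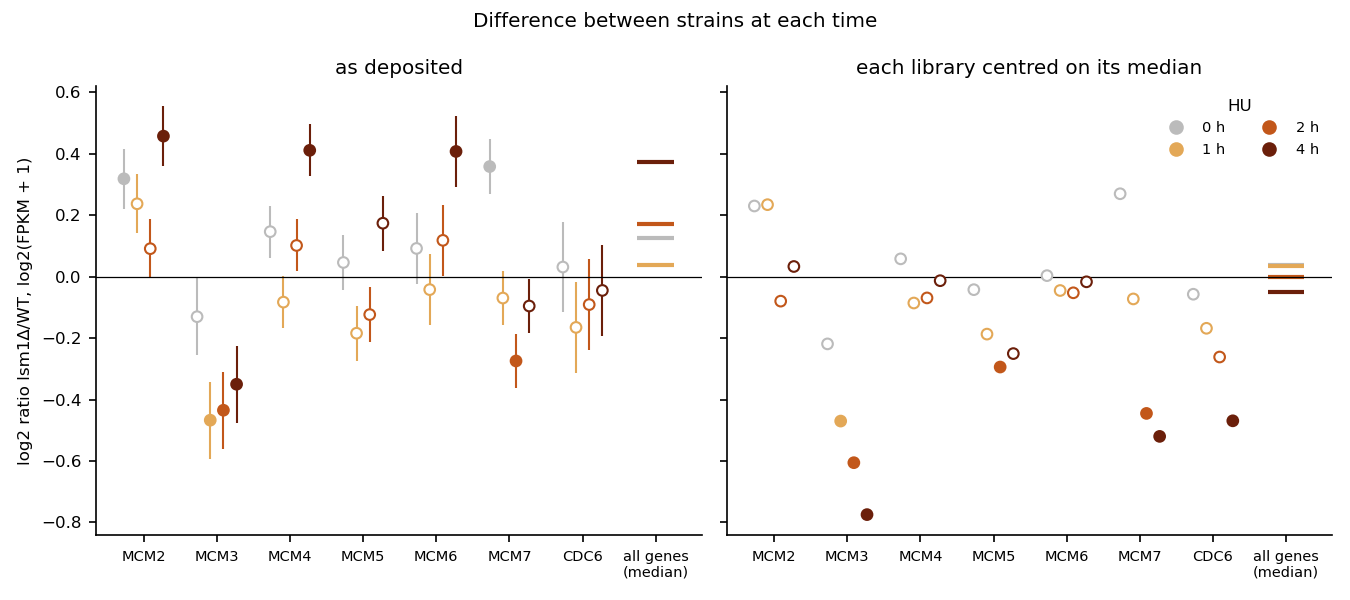
The log2 ratio of *lsm1∆* to WT (y axis) for each member at 0, 1, 2 and 4 h of HU (grey to dark brown), as deposited with SE bars (left) and after centring each library on its median, without bars (right). Filled points passed an adjusted p of 0.05, and short lines at the right of each panel mark the median of all genes. *MCM3* is filled at 1, 2 and 4 h in both panels, whereas *MCM2*, *MCM4* and *MCM6* are filled at 4 h in the left panel only.

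At 4 h *MCM2*, *MCM4* and *MCM6* were higher in *lsm1∆* on the deposited scale. *MCM2* was at 26.4 and 26.8 FPKM against 20.1 and 18.0 in WT, *MCM4* at 38.7 and 36.4 against 29.6 and 26.4, and *MCM6* at 31.2 and 30.4 against 24.4 and 21.6. Mcm4 and Mcm6 form with Mcm7 a subcomplex that has helicase activity in vitro. The log2 ratios were 0.46, 0.41 and 0.41 (SE 0.097, 0.085 and 0.12; adjusted p = 0.0024, 0.0020 and 0.012). They were close to that of the median gene (0.37), and after centring they were 0.03, -0.01 and -0.02 with no call. The call of *MCM6* was also lost without WT 4 h replicate 2 or *lsm1∆* 4 h replicate 1 (adjusted p up to 0.092). *MCM7* and *CDC6* behaved in the opposite way, with ratios of -0.10 and -0.04 as deposited and called ratios of -0.52 and -0.47 after centring. With *MCM3*, 3 of 7 members were then called, all lower, where 45.4% of genes were called in either direction.

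The counts by time show how far the members followed all genes. On the deposited scale 1 of 7 was called at 1 h (37% of genes), 2 of 7 at 2 h (39.8%) and 4 of 7 at 4 h (56.1%). At 2 h the other member called was *MCM7*, at 30.7 and 31.1 FPKM against 38.9 and 36.2 in WT (log2 ratio -0.27, SE 0.089, adjusted p = 0.033, and -0.44 after centring). That call was lost on the deposited scale without any of the 4 libraries (adjusted p up to 0.16). After centring *MCM5* was called lower at 2 h as well (-0.29, and -0.12 as deposited). Over the 3 HU times together, 4 of 7 were called (60.9% of genes), *MCM2* and *MCM4* higher (0.26 and 0.14) and *MCM3* and *MCM7* lower (-0.42 and -0.15). After centring no member was called higher and 4 were called lower, *MCM3* (-0.62), *MCM7* (-0.35), *CDC6* (-0.30) and *MCM5* (-0.24), where 30.5% of genes were called higher and 28.1% lower. The calls of *MCM4* and *MCM7* were lost without any of 6 and 7 of the 12 libraries, respectively (adjusted p up to 0.077 and 0.082). For *MCM4* these were WT replicate 2 and *lsm1∆* replicate 2 at 1 h, WT replicate 2 and *lsm1∆* replicate 1 at 2 h, and WT replicate 2 and *lsm1∆* replicate 1 at 4 h. For *MCM7* they were WT replicate 2 and *lsm1∆* replicate 1 at 1 h, WT replicate 1 and both *lsm1∆* libraries at 2 h, and replicate 2 of both strains at 4 h.

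The make-up of the ring transcripts does not depend on how libraries are scaled, because each share is taken within a library. *MCM3* made up 17.9% to 22.8% of the summed MCM2-7 level in WT and 13.0% to 19.1% in *lsm1∆*. By time its mean share was 22.7%, 21.8%, 18.4% and 20.3% in WT and 18.8%, 17.0%, 14.4% and 14.4% in *lsm1∆* (0, 1, 2 and 4 h, 2 libraries each), with no overlap between strains at any time. *MCM2* showed the reverse, with 10.3% to 13.7% in WT and 13.3% to 17.0% in *lsm1∆*. *MCM7* was at 22.5% in untreated *lsm1∆* against 19.2% in WT, but at 19.1% against 22.6% at 4 h. The share of *MCM3* carries the uncertainty of its estimate given above.

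**Figure D3:**
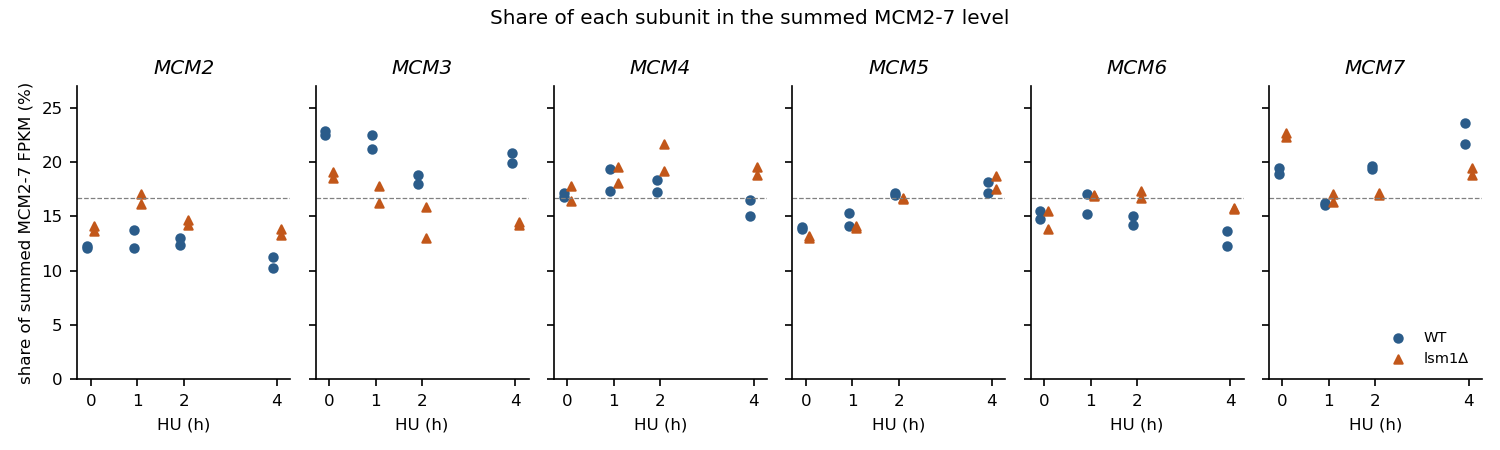
Share of each subunit in the summed FPKM of *MCM2* to *MCM7* (y axis, percent) at 0, 1, 2 and 4 h of HU (x axis), 1 point per library (WT blue circles, *lsm1∆* orange triangles), with a dashed line at equal shares. At each time both *lsm1∆* libraries lay below both WT libraries for *MCM3* and above them for *MCM2*.

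The partners of helicase and loader were compared over whole lists, given as genes called higher and lower of those tested and the list median. At 4 h against 0 h, 47.9% of all genes were called in WT and 58.3% in *lsm1∆* (50.7% after centring), with medians of -0.03 and 0.27. The counts in WT were the same on both scales for the lists given here, whereas most in *lsm1∆* were not. For ORC and Cdt1 (7 genes, the other loading factors), 1 was higher and 2 lower in WT (median -0.19). In *lsm1∆* 3 were higher and 1 lower (0.37), but 0 and 3 after centring (0.06). *ORC5* was higher in WT (log2 ratio 0.41) and in *lsm1∆* (0.54, and 0.23 without a call after centring), whereas *ORC2* was lower in both (-0.35 and -0.36).

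For the CMG and firing factors (12 genes), 5 were higher and 1 lower in WT (median 0.10). In *lsm1∆* 11 were higher and none lower (0.41), but 3 and 1 after centring (0.10). *CDC45*, which joins the ring to form CMG, rose by a log2 ratio of 0.64 in WT and 1.12 in *lsm1∆*, and *SLD2*, a CDK target needed for firing, by 0.65 and 0.62. Both were called after centring too (0.80 and 0.31 in *lsm1∆*). Of the 4 fork protection genes, *CSM3*, *CTF4* and *MRC1* were called higher in WT and all 4 in *lsm1∆*, with medians of 0.33 and 0.45. After centring only *CSM3* remained called in *lsm1∆* (0.61, from 0.93 as deposited). *MCM2* to *MCM7* had medians of -0.18 and -0.02 in the same comparisons, with 1 higher in WT, and 1 higher and 2 lower in *lsm1∆* (0 and 4 after centring, median -0.33).

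Of the 15 genes for polymerases, PCNA and RPA, 9 were called higher and 1 lower in WT (median 0.30). In *lsm1∆* 12 were higher and none lower (0.43), but 5 and 1 after centring (0.12). Other genes that peak between M and G1 phase moved far more than the helicase. Of 10 such genes, 9 were called lower in both strains at 4 h on both scales, with medians of -2.94 in WT and -2.84 in *lsm1∆*. The exception was the cyclin gene *PCL2* (0.18 and 0.23). The daughter-specific genes *DSE1* and *CTS1*, which act in cell wall metabolism and cell separation, had log2 ratios of -3.79 and -3.46 in WT. The ECB genes *CLN3* and *SWI4*, a G1 cyclin and a subunit of SBF, rose instead, by 0.56 and 0.73 in WT and by 0.51 and 1.02 in *lsm1∆*, where *CLN3* was not called after centring (0.20). *SIC1*, which encodes an inhibitor of the CDK that blocks loading, fell by 1.12 on the log2 scale in WT and by 0.54 in *lsm1∆*. Most other genes of CDK and Cdc6 turnover went up in WT group means from 0 to 4 h. These were *CDC28* (42.3 to 60.9 FPKM), *CLB5* (12.2 to 17.1), *CLB6* (5.97 to 12.0), *CDC53* (42.2 to 70.0) and *CDC34* (85.5 to 92.0). *CDC4* went down in WT (23.0 to 19.4). These are group means without calls, and the WT libraries of *CDC34* overlapped (90.0 and 80.9 at 0 h, 89.3 and 94.6 at 4 h). In *lsm1∆* the means rose for *CDC28* (53.7 to 81.0), *CLB5* (12.5 to 15.5), *CLB6* (8.25 to 21.4), *CDC53* (36.8 to 88.5) and *CDC34* (84.8 to 143). There *CDC4* rose too (20.1 to 25.9), while the median gene moved by a log2 ratio of 0.27.

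**Figure D4:**
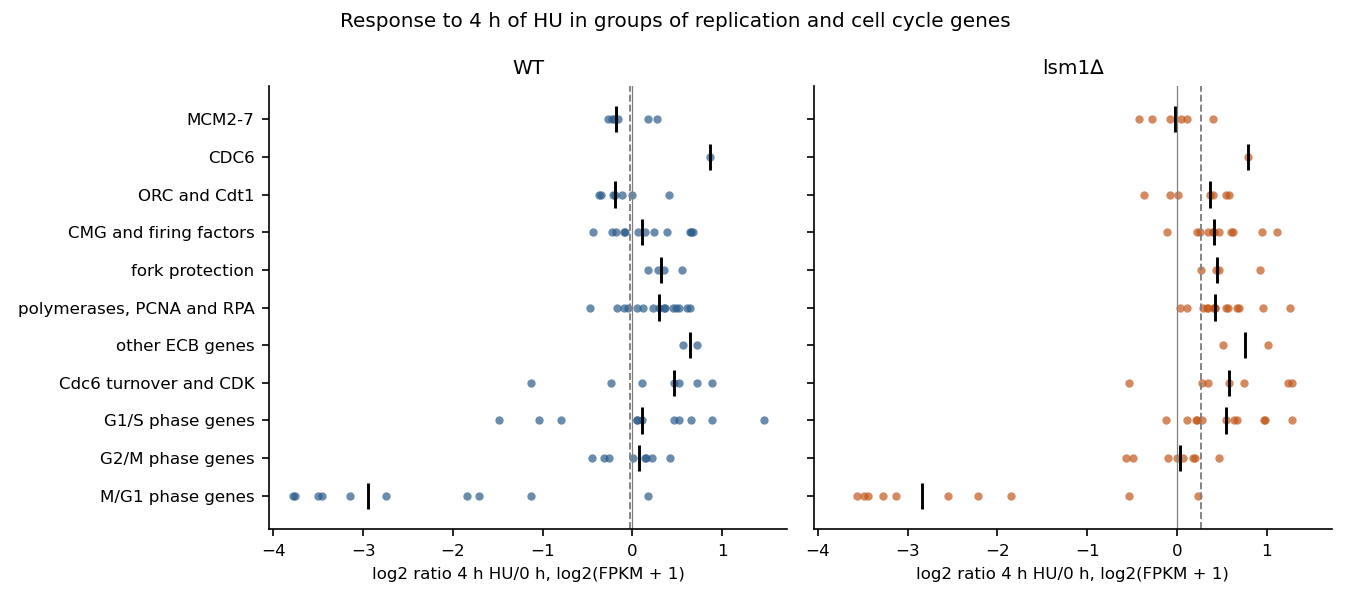
The log2 ratio of 4 h of HU to 0 h (x axis) for each gene of 11 groups (rows) in WT (left, blue) and *lsm1∆* (right, orange), with a black bar at each group's median, a solid grey line at 0 and a dashed line at the median of all genes. MCM2-7 sit between -0.43 and 0.40, *CDC6* at 0.86 and 0.79, and the medians of the M/G1 phase genes at -2.94 and -2.84.

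Of the 6 regulators of M/G1 transcription, *YOX1*, the ECB repressor, had the largest strain ratio at each time on the deposited scale. It was at means of 17.2, 13.8, 14.8 and 13.4 FPKM in WT and 25.9, 27.7, 25.3 and 39.3 in *lsm1∆*, with log2 ratios of 0.56, 0.97, 0.74 and 1.49 at 0, 1, 2 and 4 h. All 4 were called on both scales (0.47, 0.97, 0.56 and 1.06 after centring). *MCM1* was called higher in *lsm1∆* at 1, 2 and 4 h (0.29, 0.45 and 0.46), the last not after centring (0.04). The forkhead gene *FKH2* was lower at all 4 times (-0.33, -0.46, -0.50 and -0.46) on both scales. Over the list, 4 were higher and 1 lower at 4 h, and 2 and 2 after centring.

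Genes outside the members with the ECB letters in their promoters were called between strains in both directions. Divergent genes can share a site, as *PIG1* does with *MCM5* and *ELO1* with *CDC6*, so these genes are not all separate promoters. Of the 53 tested, 20 were called higher and 11 lower in *lsm1∆* at 4 h, which is 58.5% against 56.1% of all genes (median 0.20, against 0.37). After centring 6 were higher and 24 lower, or 56.6% against 45.4% of all genes (median -0.22, against -0.05). Over the 3 HU times together 20 were higher and 14 lower, or 64.2% against 60.9%. After centring these counts were 13 and 28, or 77.4% against 58.6% (median -0.21, against -0.01). Lower calls then outnumbered higher ones in these genes, whereas over all genes 30.5% were called higher and 28.1% lower. At 0 h 12 were higher and 2 lower, or 26.4% against 28.5% (median 0.16, against 0.13). In WT at 4 h of HU 19 were higher and 10 lower than at 0 h, or 54.7% against 47.9% (median 0.07, against -0.03). Among the members, the strain ratio at 4 h as deposited ran from -0.35 (*MCM3*) to 0.41 (*MCM6*) in those with ECB letters, and was 0.46 and 0.41 in *MCM2* and *MCM4*, which had none.

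Across the 16 libraries, how closely the subunits followed each other depended on the scale. As deposited, 10 of the 15 pairs of subunits had a positive Pearson's r (median 0.13), and 14 of 15 after centring (median 0.51). As deposited, r between log2 values of *MCM4* and *MCM6* was 0.84 and between *MCM2* and *MCM6* 0.74, whereas it was -0.34 between *MCM2* and *MCM3* and -0.37 between *MCM3* and *MCM4*. These are descriptions over libraries that share strain, time and scaling. After centring *MCM2* and *MCM3* stood at 0.32, *MCM3* and *MCM4* at 0.49, *MCM3* and *MCM7* at 0.73 and *MCM5* and *MCM7* at 0.75. *CDC6* was closest to *MCM5* among the members (0.67). Among 6098 genes with a mean of at least 10 FPKM, the profiles most like that of *CDC6* were YJL026C-A (0.943), which lies within *RNR2*, *TOP3* (0.942), *RNR2* (0.941), *RNR4* (0.941) and *ZDS2* (0.941). *RNR2* and *RNR4* encode the small subunit of ribonucleotide reductase, the enzyme that HU inhibits. After centring the nearest were *NCA3* (0.95), YLR108C, *YGP1*, *MAM3* and *TOP3* (0.91). The mean profile of the subunits was most like those of *LYS4* (0.81), YNR003W-A, *KEL3*, *URK1* and *PEX6* (0.75) as deposited, and of *ALK1* (0.93), *KAP123*, *IMD4*, YNL058C and *SHM1* (0.88) after centring, with no gene among the 5 nearest on both scales.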

How the data were processed

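Total RNA was depleted of rRNA, made into libraries with a kit that does not keep the strand, and aligned by the authors to sacCer3 with TopHat2. The deposited values are FPKM and the bounds of their intervals, estimated by the authors with Cufflinks, 1 table of 7126 genes per library. The 46 genes with a failed estimate were left out, and the test covered the 6977 genes that reached 1 FPKM in 2 or more libraries. A single limma fit (R 4.3.3, limma 3.58.1, trend in eBayes) of log2(FPKM + 1) in 16 libraries gave 8 group means, 18 comparisons and Benjamini-Hochberg adjusted p-values, called under 0.05. Ratios are on the log2(FPKM + 1) scale, and errors are standard errors of the fit. Alternatives were centring each library on its median, a pseudocount of 0.1, no filter, a mean of 5 FPKM in every group, failed estimates at 0, a replicate block, a fit of the compared groups, an adjusted p under 0.01, and leaving out each library. Afterwards limma voom was run on the reads implied by the interval widths, taking each half-width as 2 SD of a count. The widths gave reads within 0.05 of a whole number for 43.9% of values under 30 reads, so the implied reads are approximate, and their precision covers counting error only. Samples sharing a replicate number did not deviate together (correlation over 0.1 in 8 of 28 pairs of groups). All 7 members and every gene of the lists may be named, with the 5 genes most like each profile. The members and lists were chosen with earlier results of these data known, and a gene of the lists is not reported here. The code was tested on simulated data. Motifs were counted in 500 bases before the start codon.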

Additional observations from a re-analysis of the deposited data

Results flagged for a closer look

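The response of *MCM7* to HU was called different between the strains at 2 times by the test of the interaction itself. Both calls use the same 0 h libraries, and each was lost when some single libraries were left out, as given above. At 2 h the interaction was -0.63 (SE 0.13; limma, adjusted p = 0.047) on the deposited scale and -0.72 (adjusted p = 0.048) after centring. At 4 h it was -0.45 (SE 0.13; adjusted p = 0.023), and -0.79 (adjusted p = 0.0058) after centring. Each interaction sets the strain difference under HU against that in untreated cells. Untreated *MCM7* was higher in *lsm1∆*, with libraries of 42.2 and 49.2 FPKM against 34.8 and 35.8 FPKM in WT. Under HU its group mean was lower in *lsm1∆*, with 30.9 against 37.6 FPKM (2 h) and 37.5 against 40.1 FPKM (4 h). Both sides therefore enter each value.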

How the results depend on the processing

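Of the 126 log2 ratios (7 members, 18 comparisons), a pseudocount of 0.1, no filter and failed estimates at 0 changed no call, and a filter of 5 FPKM changed 1, the rise of *CDC6* in *lsm1∆* at 1 h, which gave a count of 1 higher in place of 0. The replicate block added 3 calls and lost none. It raised the higher count to 2 for WT 2 h against 1 h and to 1 for *lsm1∆* 1 h against 0 h. Centring each library changed the call of 25 of the 126, and 4 of these changed sign: *MCM4* and *MCM6* in *lsm1∆* against WT at 4 h (-0.013 and -0.016), *MCM4* over HU (-0.056) and *MCM4* in *lsm1∆* at 4 h against 0 h (-0.20, called lower). After centring the higher counts became 0 for *lsm1∆* against WT at 0 h, at 4 h and over HU, 0 for WT at 1 h, *lsm1∆* at 2 h and *lsm1∆* 2 h against 1 h, and 1 for WT at 2 h and *lsm1∆* at 4 h. The lower counts became 3 for the strains at 4 h, 4 over HU, 1 for WT at 2 h, 0 for WT 4 h against 2 h, and 4 for *lsm1∆* at 1 and 4 h.

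At an adjusted p under 0.01, 21 calls were lost. Higher counts became 0 for the strains at 0 h, WT 2 h against 1 h and *lsm1∆* 2 h against 1 h, and 1 for the strains over HU, WT at 2 h and WT at 4 h. Lower counts became 0 for the strains at 1, 2 and 4 h, WT at 1 h, WT 4 h against 2 h, *lsm1∆* at 4 h and both interactions, and 1 for the strains over HU and *lsm1∆* at 1 h. A fit of only the groups compared, with fewer libraries behind the spread, lost 17 calls. Higher counts became 0 for the strains at 0 h, WT 2 h against 1 h, *lsm1∆* at 2 h and *lsm1∆* 2 h against 1 h. Lower counts became 0 for the strains at 1 and 2 h, WT at 1 h, WT 4 h against 2 h, *lsm1∆* at 1 and 4 h and the interaction at 2 h, and 1 for *lsm1∆* at 2 h. With voom on implied reads, added after seeing the data, 11 calls were gained and 3 lost. Lower counts became 2 for the strains at 1 and 4 h, 4 over HU and 1 for WT 4 h against 2 h. Higher counts became 1 for the strains over HU, *lsm1∆* at 1 h and *lsm1∆* 4 h against 2 h, and 2 for WT 2 h against 1 h and *lsm1∆* 2 h against 1 h.

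Leaving out each library in turn gave higher counts of 0 to 2 for the strains at 0 h, 0 to 1 at 1 h, 2 to 3 at 4 h and 1 to 3 over HU. The lower counts of the strains were 0 to 1 at 1 h, 0 to 1 at 2 h, 0 at 4 h and 1 to 2 over HU. In WT the higher counts were 1 to 2 at 2 h, 1 at 4 h and 0 for 2 h against 1 h, and the lower counts 0 to 1 at 1 h and 0 to 2 for 4 h against 2 h. In *lsm1∆* the higher counts were 0 to 1 at 1 h, 1 to 2 at 2 h and 0 for 2 h against 1 h, and the lower counts 1 to 4 at 1 h, 1 to 2 at 2 h and 0 to 2 at 4 h. Called interactions were 0 to 1 lower at 2 h, and 0 to 1 lower and 0 to 1 higher at 4 h. A group left with a lone library was assumed to vary like the other groups. With 2 libraries a group, and 269 to 1438 reads implied for a member, small ratios were detected only in part: in data simulated for the strains at 4 h over 6977 genes, 27 of 50 changes of 1.5 fold were recovered.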
